A study of Mus musculus with 20 samples.

Results

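Dendritic cells of the laser-lesioned mouse retina were compared between day 7 and day 3 after the lesion. Their wells were those to which the authors' deposited annotation of retinal wells gives the cell type DCs, and the time came from the well's identifier. They numbered 108 of 511 annotated wells: 26 at day 7 and 82 at day 3. The annotation named 0 of 122 wells of unlesioned retina as dendritic cells, a count that allows a share of up to 2.46%, so the unlesioned retina could not serve as a baseline. The mice were C57BL/6, aged 8 weeks, from an SPF facility. Both groups had received laser lesions, which the labels call CNV, the usual abbreviation of choroidal neovascularization. Cells stained for CD45 and CD11b were sorted into 384-well plates if they carried CD45, the common leukocyte antigen, and libraries of 192 wells were made by mCEL-Seq2, which tags each transcript with a molecular identifier. Each time had 4 libraries: 2 with the title prefix P1 (libraries 1 and 2) and 2 with P2 (libraries 3 and 4). The design speaks of about 6 mice in 3 experiments, without saying which mouse a library came from. The p-values of the share tests and of fits over single libraries therefore measure the spread between libraries. Those of the main expression and interaction tests measure the spread between 2 sums per time, each over the 2 libraries of a prefix. Either spread may be technical.

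Dendritic cells take up antigen, present it on MHC class II molecules, and carry it to lymph nodes after a maturation step. Maturation brings the chemokine receptor CCR7, the actin-bundling protein fascin (Fscn1) and costimulatory molecules such as CD83. Conventional dendritic cells depend on the growth factor receptor Flt3 and fall into cDC1 (Xcr1, Clec9a), which present antigen to CD8 T cells, and cDC2 (Sirpa, Cd209a, Clec10a), which mainly prime CD4 T cells. The healthy neural retina is poor in such cells, and microglia are its main resident leukocytes.

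Dendritic cell markers were high in these wells, while the authors' second, signature-based column named fewer of them dendritic cells, as given with the clusters at the end. Summed over wells, the genes of a list of core dendritic cell markers took 44843 and 50843 CPM (counts scaled to 1000000 per sum) in the P1 and P2 sums at day 7, against 39731 and 39591 at day 3. The microglia of the same libraries had 3162 and 1564 CPM at day 7, against 1099 and 1787 CPM at day 3. The joint class of monocytes, lymphocytes and granulocytes had 3150.1 and 3839.5 CPM at day 7, against 14893 and 3756 at day 3. Its P1 sum at day 3 therefore held more transcript of these listed markers than its other 3 sums. Most of the list's CPM in dendritic cells came from the MHC class II genes H2-Aa and H2-Ab1 and from Cd74. In P1 at day 7 these had 15457, 10980 and 15914 CPM, against 376 CPM for Flt3 and 47.0 CPM for Zbtb46. Flt3 had 192 to 376 CPM in the dendritic cell sums, 0 to 4.65 CPM in microglia and 26.6 to 115 CPM in the joint class. P2ry12, a microglial receptor, stayed between 4.7 and 33.1 CPM in the dendritic cell sums, against 549.7 to 790.1 CPM in microglia. The B-cell gene Cd79a was at 0 in every sum of all classes, so it does not set these wells apart. Ighm, another B-cell gene, had 94.0 and 199 CPM in dendritic cells at day 7, against 235 and 125 CPM at day 3.

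Depth was lower at day 7. The dendritic cell wells held a median of 7060 transcripts and 2130 genes at day 7, against 10294 transcripts and 2961 genes at day 3. The sums held 127709 (P1, 16 wells) and 60410 (P2, 10 wells) transcripts at day 7, against 212666 (P1, 23 wells) and 666267 (P2, 59 wells) at day 3. Mitochondrial transcripts made up a median of 10.1% of a well at both times. Transcripts of a photoreceptor list made up a median of 0.361% of a well at day 7 and 0.101% at day 3.

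The first question was whether dendritic cells were as common among the annotated wells at day 7 as at day 3. They made up 11.4%, 18.0%, 15.4% and 11.1% of the annotated wells in day 7 libraries 1 to 4, against 32.4%, 32.4%, 39.5% and 44.0% in day 3 libraries 1 to 4. Every day 7 library lay below every day 3 library. The mean share was 14.0% ± 3.34 at day 7 and 37.1% ± 5.70 at day 3 (SD, n = 4 libraries each), a difference of -23.1 percentage points. The two-sided exact permutation test over libraries gave p = 0.0286, the smallest that 4 against 4 allows, and 0.0571 after Benjamini-Hochberg adjustment over the 2 share tests, so the difference missed 0.05. Among the wells other than microglia, dendritic cells made up 27.8%, 45.8%, 54.5% and 28.6% in day 7 libraries 1 to 4, against 68.8%, 48.0%, 57.7% and 72.1% in day 3 libraries 1 to 4. These ranges overlapped, and the means of 39.2% ± 13.2 at day 7 and 61.6% ± 10.99 at day 3 gave an exact permutation p of 0.0571 (two-sided, adjusted p = 0.0571). A share of sorted wells gives no number of cells per retina.

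**Figure D1:**
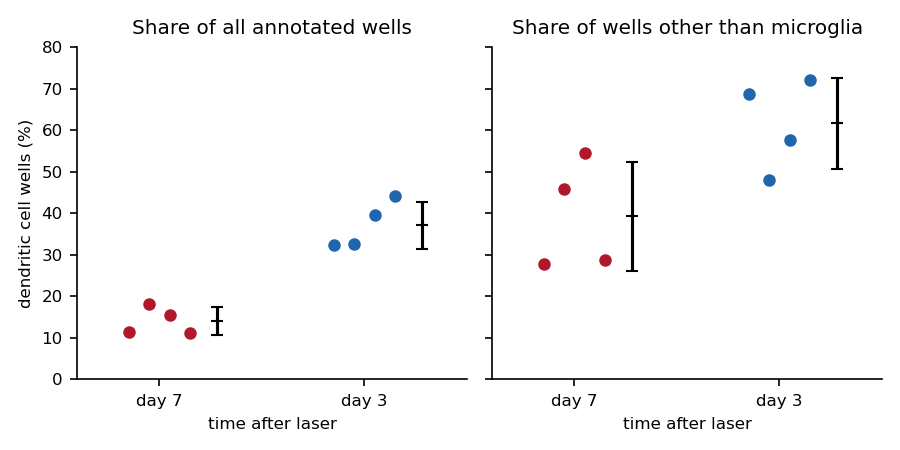
Percent of wells annotated as dendritic cells in each laser library, among all annotated wells (left) and among wells other than microglia (right). Points are libraries and the bars beside them the mean and SD (n = 4); the day 7 libraries sit between 11.1% and 18.0% on the left, below all day 3 libraries (32.4% to 44.0%), and overlap them on the right.

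The second question was which genes the dendritic cells expressed differently at the later time. Raw transcripts were summed per prefix and tested as 2 sums against 2 with edgeR's quasi-likelihood test. Of 2390 genes tested, 3 passed an adjusted p of 0.05, or 0.126%: 1 (0.0418%), Fscn1, was higher at day 7, and 2 (0.0837%), Ifitm1 and Gm7676, were lower. In all, 252 genes (10.5%) had an unadjusted p under 0.05, with 147 higher (6.15%) and 105 lower (4.39%). The log2 change lay above 0 for 1205 of the 2390 genes. The P1 and P2 sums of the 2 times did not overlap for 43.9% of the genes tested, so values of the 4 single libraries are given below beside the main results. Leaving out 1 sum or library moved the count of calls to between 1 (without library 2 of day 7) and 71 (without the day 7 P2 sum).

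Ifitm1 was the gene with the smallest p. It encodes a member of the interferon-induced transmembrane proteins, which are known for holding back the entry of enveloped viruses into cells. Day 7 libraries 1 to 4 had 563, 239, 527 and 134 CPM, against 3025, 2528, 3203 and 3095 CPM in day 3 libraries 1 to 4. All 4 day 7 libraries thus lay far below all 4 day 3 libraries, with means of 366 ± 212 CPM at day 7 and 2963 ± 299 CPM at day 3 (SD, n = 4 libraries each). The log2 change was -3.002 (SE 0.231, edgeR adjusted p = 0.00186). Within P1 the sums were 329 CPM at day 7 and 2686 CPM at day 3, and within P2 they were 381 CPM at day 7 and 3127 CPM at day 3.

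The difference in Ifitm1 was spread over many wells. At least 1 transcript was found in 12 of 26 wells at day 7 and in 75 of 82 wells at day 3. After each well was thinned to 3000 transcripts, which left out 4 wells at day 7 and 7 at day 3, the shares were 45.5% and 81.3% (day 7 and day 3), against 46.2% and 91.5% as sequenced. In microglia, with medians of 4138 and 4482 transcripts per well at day 7 and day 3, the thinned shares were 11.6% and 11.1%, and those as sequenced 15.9% and 35.8%. In the joint class, with medians of 4842 and 5611 transcripts per well at day 7 and day 3, the thinned shares were 13.8% and 45%, and those as sequenced 24.4% and 63.0%. The median well had 0 CPM at day 7 and 2852 CPM at day 3, and the highest well had 1932 CPM at day 7 and 13862 CPM at day 3. The level was lower at day 7 in the authors' cluster 7, the largest dendritic cell cluster at both times (379 CPM at day 7, 3481 CPM at day 3), and in their cluster 1 (296 CPM at day 7, 2550 CPM at day 3).

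Gm7676 cannot be read as a separate result. It is annotated as a processed pseudogene, and its transcript of 319 bases is 97.5% identical to the coding part of an Ifitm1 transcript. In all, 8 bases differ. The last 90 bases of the match, from the GENCODE M21 transcripts, show how few bases could tell their reads apart; capitals mark the 4 that differ there.
Ifitm1: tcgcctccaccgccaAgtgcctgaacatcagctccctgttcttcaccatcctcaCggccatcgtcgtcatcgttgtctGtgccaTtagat
Gm7676: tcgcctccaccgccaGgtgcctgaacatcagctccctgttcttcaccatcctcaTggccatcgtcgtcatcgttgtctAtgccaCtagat
Gm7676 had 112, 54.3, 132 and 89.1 CPM in day 7 libraries 1 to 4, against 813, 484, 831 and 614 CPM in day 3 libraries 1 to 4. It took 17.6% and 23.3% of the transcripts of the pair in the P1 and P2 sums at day 7, and 18.0% and 17.8% at day 3, so the pair kept nearly 1 ratio while its level differed. How the authors assigned reads that match both genes is not given in the sources used here. Its log2 change was -2.81 (SE 0.344, edgeR adjusted p = 0.0228), and its call was lost without library 2 of day 7 (adjusted p = 0.154). The other members of the family that were tested, chosen after their values were seen, had smaller log2 changes that did not pass: -0.58 for Ifitm2, -0.43 for Ifitm3 and -0.71 for Ifitm6 (edgeR adjusted p = 0.587, 0.56 and 0.518).

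Fscn1 was the only gene called higher at day 7, and its rise rested on 2 wells. Day 7 libraries 1 to 4 had 0, 403, 0 and 714 CPM, against 73.8, 20.7, 76.5 and 4.26 CPM in day 3 libraries 1 to 4. The libraries therefore overlapped, although the P1 and P2 sums (290 and 265 CPM at day 7, 37.6 and 25.5 CPM at day 3) did not. The log2 change over sums was 3.29 (SE 0.344, edgeR adjusted p = 0.00996). All 53 transcripts at day 7 came from 1 well of library 2 and 1 well of library 4, both in cluster 7. With each gene's highest well left out of each sum, an alternative chosen after the data were seen, Fscn1 had no transcript left at day 7. Without library 4 of day 3 it did not pass (log2 change 2.36, edgeR adjusted p = 0.103), and without library 2 or library 4 of day 7 it was not tested.

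These 2 wells also held much of the transcript of some other maturation genes. They held 43 of the 43 Ccr7 transcripts of day 7, 18 of 18 of Socs2, a brake on cytokine signalling, and 63 of 86 of the chemokine gene Ccl5. Of Cd83 they held 22 transcripts, and the other 24 wells held 32. Wells with both Fscn1 and Ccr7 made up 2 of 26 at day 7 (7.69%) and 2 of 82 at day 3 (2.44%). Both shares rest on 2 wells. At least 1 Fscn1 transcript was found in 2 of 26 wells at day 7 (7.69%) and 6 of 82 at day 3 (7.32%). For Ccr7 it was 2 of 26 wells at day 7 (7.69%) and 8 of 82 at day 3 (9.76%). Of the 15 tested members of the mature list, 1 passed the test (Fscn1), and 14 lay above 0, against 1205 of all 2390 genes. Their median log2 change was 0.72, against 0.00 over all genes tested. With each gene's highest well left out of each sum the median over the 7 members still tested was -0.05. Without the day 7 P1 sum the median was 1.69, and without the day 7 P2 sum 0.30. Ccr7 itself had 0, 327, 0 and 580 CPM in day 7 libraries 1 to 4, against 133, 13.8, 502 and 4.26 CPM in day 3 libraries 1 to 4, and did not pass (log2 change 1.02, edgeR adjusted p = 0.492).

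**Figure D2:**
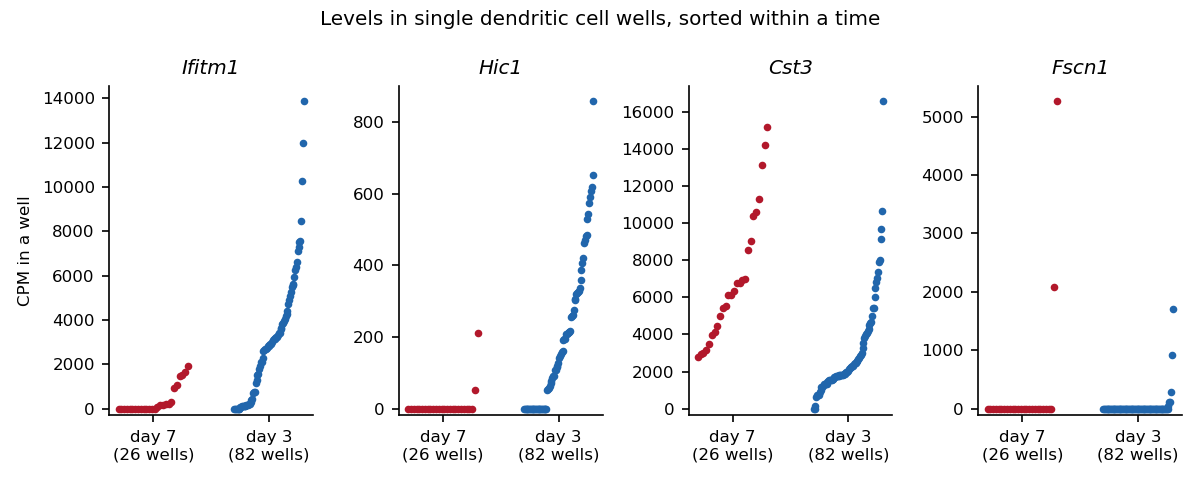
Level of Ifitm1, Hic1, Cst3 and Fscn1 in each dendritic cell well (CPM of the well), sorted within a time, with 26 wells at day 7 and 82 at day 3. Ifitm1 and Hic1 are at 0 in most wells of day 7 and above 0 in most of day 3. Cst3 is high in nearly all wells of day 7, and Fscn1 is above 0 in only 2 wells of day 7 and 6 of day 3.

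When the 4 libraries of each time were tested singly in place of the prefix sums, 934 genes were deep enough to test and 8 passed. The falls were Ifitm1, Gm7676, Hic1, Cfp and Itgax, and the rises were Cst3, Rps28 and Mcemp1. All 8 had libraries that did not overlap between the times, but they were picked by a test on these same libraries. The share without overlap over all 934 genes was not computed. Fscn1 was not among the genes tested there. The 6 genes beyond the Ifitm1 pair did not pass in the prefix sums, where their adjusted p ranged from 0.0569 to 0.351, and they are given with both values.

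Hic1, which encodes a zinc finger transcriptional repressor, had 0, 10.9, 79.0 and 0 CPM in day 7 libraries 1 to 4, against 162, 138, 199 and 209 CPM in day 3 libraries 1 to 4. It was found in 2 of 26 wells at day 7 and 55 of 82 at day 3, or in 4.55% and 42.7% of wells after thinning (day 7 and day 3), against 1.45% and 3.70% in microglia and 3.45% and 15% in the joint class. Its log2 change was -3.05 over libraries (edgeR adjusted p = 0.0131) and -3.001 over prefix sums (adjusted p = 0.236). Cfp encodes properdin, which stabilises the alternative pathway enzyme of complement. It had 112, 65.1, 237 and 89.1 CPM in day 7 libraries 1 to 4, against 428, 636, 438 and 460 CPM in day 3 libraries 1 to 4. Its log2 change was -2.05 over libraries (edgeR adjusted p = 0.00477) and -2.05 over prefix sums (adjusted p = 0.236).

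Itgax, the integrin chain CD11c by which dendritic cells are commonly gated, had 309, 282, 316 and 312 CPM in day 7 libraries 1 to 4, against 753, 643, 642 and 537 CPM in day 3 libraries 1 to 4. The day 7 values were tightly grouped, at 305 ± 15.3 CPM, and all lay below the day 3 values, at 644 ± 88.2 CPM (SD, n = 4 libraries each). Its log2 change was -1.07 over libraries (edgeR adjusted p = 0.0235) and -0.99 over prefix sums (adjusted p = 0.351).

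Cst3, encoding the cathepsin inhibitor cystatin C, was the most abundant of the rises. It had 7247, 6968, 9038 and 7679 CPM in day 7 libraries 1 to 4, against 2187, 3641, 2569 and 3100 CPM in day 3 libraries 1 to 4, and was found in 26 of 26 wells at day 7 and 80 of 82 at day 3. The log2 change was 1.42 over libraries (edgeR adjusted p = 0.00113) and 1.40 over prefix sums (adjusted p = 0.0569). Cst3 was also higher at day 7 in microglia (7455 and 7048 CPM in P1 and P2 at day 7, 4598 and 5782 CPM at day 3), where the log2 change was 0.88 (edgeR adjusted p = 0.00635). In the joint class it had 1241 and 1086 CPM at day 7, against 2240 and 1218 CPM at day 3. Whether transcripts from microglia entered the dendritic cell values was not tested.

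Rps28, a protein of the small ribosomal subunit, had 1493, 1044, 1002 and 1384 CPM in day 7 libraries 1 to 4, against 664, 684, 632 and 528 CPM in day 3 libraries 1 to 4 (log2 change 0.96 over libraries, edgeR adjusted p = 0.0129, and 0.97 over prefix sums, adjusted p = 0.236). Mcemp1, a transmembrane protein gene of myeloid cells, had 309, 206, 237 and 714 CPM in day 7 libraries 1 to 4, against 44.2, 62.1, 122 and 78.8 CPM in day 3 libraries 1 to 4. Library 4 of day 7 stood highest, and the lowest day 7 library still lay above every day 3 library (log2 change 1.92 over libraries, edgeR adjusted p = 0.0258, and 1.98 over prefix sums, adjusted p = 0.236).

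**Figure D3:**
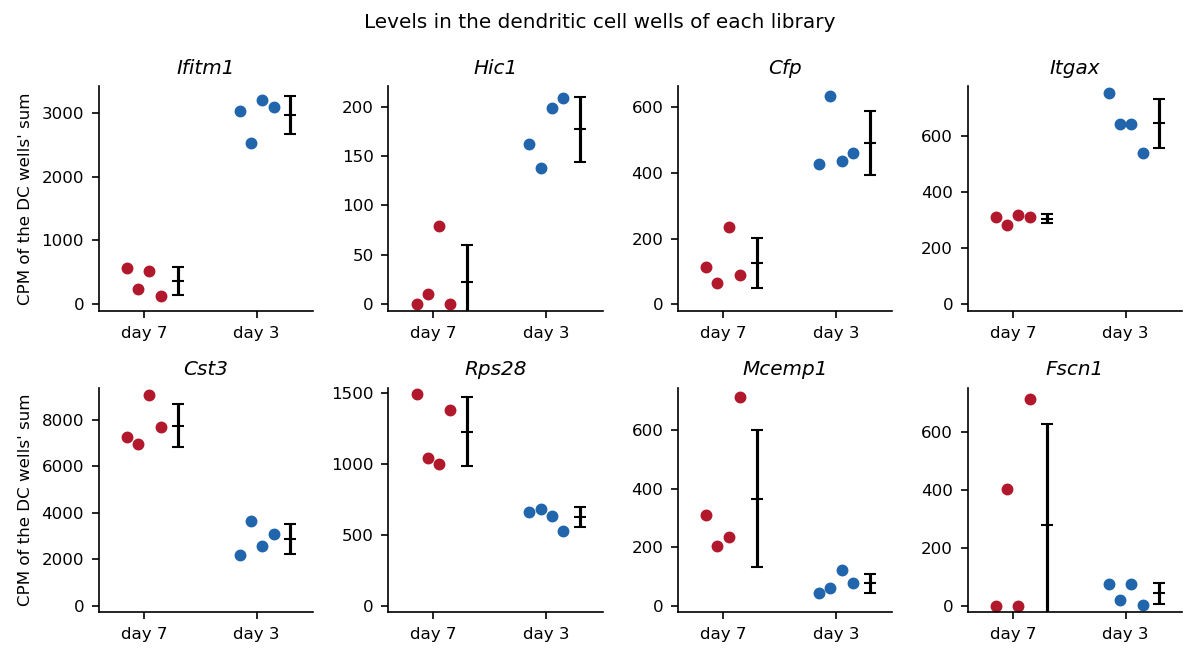
CPM of the summed dendritic cell wells in each library at day 7 and day 3 for 8 genes, with the mean and SD beside the points (n = 4), the SD bars of Hic1 and Fscn1 cut off below 0. Ifitm1, Hic1, Cfp and Itgax lie lower in every day 7 library than in any day 3 library, Cst3, Rps28 and Mcemp1 lie higher, and Fscn1 is at 0 in 2 of the 4 day 7 libraries.

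The identity genes of dendritic cells were present at both times and none of those tested passed in the prefix sums. H2-Aa, an MHC class II chain, had 14966, 15647, 19954 and 17947 CPM in day 7 libraries 1 to 4, against 13253, 12961, 14649 and 12714 CPM in day 3 libraries 1 to 4. These values did not overlap, yet the log2 change of 0.45 (SE 0.216) did not pass (edgeR adjusted p = 0.507). Its partner H2-Ab1 (log2 change 0.33) and the invariant chain Cd74 (0.25) did not pass either. Of 12 tested MHC class II genes 0 passed, with 9 above 0 and a median log2 change of 0.27. Flt3, the receptor for the dendritic cell growth factor, had 647, 271, 237 and 357 CPM in day 7 libraries 1 to 4, against 310, 304, 158 and 207 CPM in day 3 libraries 1 to 4, and these overlapped (log2 change 0.53, edgeR adjusted p = 0.565). The transcription factor gene Zbtb46, which marks conventional dendritic cells, was too low to test, with 7 transcripts at day 7 and 41 at day 3.

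The cDC1 genes lay above 0 without any passing the test with both prefixes in the fit, and their median changed sign without the day 7 P1 sum. Of 12 tested members 0 passed and 4 had an unadjusted p under 0.05, all higher, against 6.15% of all genes. All 12 lay above 0, with a median log2 change of 0.79, or 0.65 with the prefix added to the fit. Without the day 7 P1 sum the median was -0.076, and without the day 7 P2 sum it was 1.33. Id2, a transcriptional regulator needed for cDC1, had 1144 and 1524 CPM in P1 and P2 at day 7, against 753 and 712 CPM at day 3 (log2 change 0.90, edgeR adjusted p = 0.311). The interferon-inducible Ifi205 had 407 and 265 CPM at day 7, against 169 and 116 CPM at day 3 (log2 change 1.39, edgeR adjusted p = 0.319). The chemokine receptor Xcr1, the defining gene of the subset, had 188 and 49.7 CPM at day 7, against 188 and 57.0 CPM at day 3. Its fitted log2 change lay above 0 (0.46, edgeR adjusted p = 0.842), although its level was not higher at day 7 in either prefix. P1 thus held more Xcr1 than P2 at both times, and the transcription factor gene Irf8 had the same order (971 and 182 CPM at day 7, 644 and 294 CPM at day 3). At day 7 a single well held 55.6% of all Xcr1 transcripts, and the 2 highest wells held 49.7% of the transcripts of the whole list. Of the 11 tested cDC2 members 0 passed, and the median was -0.04. Cd209a, a lectin gene of cDC2, had 446 and 149 CPM at day 7, against 84.7 and 155 CPM at day 3 (log2 change 1.39, edgeR adjusted p = 0.394). Sirpa, an inhibitory receptor gene of cDC2, had 39.2 and 149 CPM at day 7, against 169 and 170 CPM at day 3 (log2 change -1.08, edgeR adjusted p = 0.485).

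Most genes of the interferon response list also lay above 0, opposite in direction to Ifitm1. The list does not hold Ifitm1, Ifitm2 or Ifitm6, whose log2 changes lay below 0. Of 25 tested members 0 passed and 8 had an unadjusted p under 0.05, all higher at day 7, against 6.15% of all genes. Of the 25, 21 lay above 0, against 1205 of all 2390 genes, with a median log2 change of 0.78. Isg15, a ubiquitin-like protein induced by interferon, had 84.3, 326, 184 and 938 CPM in day 7 libraries 1 to 4, against 73.8, 34.5, 66.2 and 80.9 CPM in day 3 libraries 1 to 4. Library 4 of day 7 was the highest, and library 1 lay just above the day 3 range (log2 change 2.38, edgeR adjusted p = 0.113). The 2 wells with Fscn1 held 43 of the 61 Isg15 transcripts of day 7. Irf7, the transcription factor that amplifies type I interferon, had 141, 185, 158 and 535 CPM in day 7 libraries 1 to 4, against 29.5, 27.6, 25.5 and 76.7 CPM in day 3 libraries 1 to 4 (log2 change 2.14, edgeR adjusted p = 0.236). With each gene's highest well left out of each sum, the list's median over 16 members was 0.75. Leaving out 1 prefix sum gave list medians of 0.69 to 0.87 and log2 changes of Isg15 from 1.98 to 2.92. When 1 library was left out, Isg15 passed without day 7 library 1 or day 3 library 2 (edgeR adjusted p = 0.0328 and 0.0222). It did not pass when any other library was left out (edgeR adjusted p from 0.0514 to 0.432). With the prefix added to the fit, Isg15 and Irf7 passed (edgeR adjusted p = 0.00112 and 0.00451), but whether the prefix pairs samples is not known.

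Genes of the cell cycle lay mostly below 0. Of 9 tested members 0 passed and 5 had an unadjusted p under 0.05, all lower at day 7, against 4.39% of all genes, and the median log2 change was -1.17. Leaving out 1 prefix sum kept the median below 0. It was -2.30 over 13 members without day 3 P2 and -2.21 over 24 without day 7 P2. It was -2.89 over 24 members without day 7 P1 and -0.81 over 7 without day 3 P1. The whole list, tested or not, summed to 1285 and 1259 CPM in P1 and P2 at day 7, against 4247 and 2582 CPM at day 3. Mki67, which encodes the proliferation antigen Ki-67, was too low to test: 1 of 26 wells had a transcript at day 7 and 21 of 82 at day 3. There was 1 transcript at day 7 and 59 at day 3, a CPM ratio of 0.0792 with 95% counting limits of 0.00197 and 0.459. Top2a, the topoisomerase of dividing cells, had 2 transcripts at day 7 and 78 at day 3 (ratio 0.12, limits 0.0143 and 0.448). 2810417H13Rik, whose current symbol is Pclaf, a PCNA-binding factor gene, had 0 transcripts at day 7 and 87 at day 3, at least 6.21-fold lower on a floor of 3 transcripts for the group. Intervals and floors cover counting error only. Mki67 had 28.1, 0, 0 and 0 CPM in day 7 libraries 1 to 4, against 14.7, 173, 40.7 and 53.2 CPM in day 3 libraries 1 to 4, so the day 3 libraries varied among themselves and the 2 times overlapped.

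Among the costimulation genes 0 of 9 tested passed. Cd83 had 197, 337, 79.0 and 580 CPM in day 7 libraries 1 to 4, against 0, 34.5, 204 and 27.7 CPM in day 3 libraries 1 to 4. It was found in 12 of 26 wells at day 7 and 19 of 82 at day 3, and the libraries overlapped (log2 change 2.25, edgeR adjusted p = 0.236). Its call depended on the samples: when 1 library was left out, it passed only without day 3 library 3 (edgeR adjusted p = 0.00305). The log2 change ranged from 1.77 to 3.60 when 1 prefix sum was left out. With the prefix added to the fit Cd83 passed over prefix sums (edgeR adjusted p = 0.0127) and not over single libraries (0.264). Cd86 was nearly level (78.3 and 99.4 CPM at day 7, 122 and 67.6 CPM at day 3), and Cd40 and Cd80 were too low to test. Lgals9, which encodes galectin-9, had 117 and 82.8 CPM at day 7, against 174 and 254 CPM at day 3 (log2 change -1.02, edgeR adjusted p = 0.438). Il1b, encoding an inflammatory cytokine, had 957, 348, 448 and 535 CPM in day 7 libraries 1 to 4, against 620, 166, 275 and 371 CPM in day 3 libraries 1 to 4, with overlap (log2 change 0.66, edgeR adjusted p = 0.44).

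Further genes without a call are given as values. Of the immediate early genes 0 of 12 passed and 3 had an unadjusted p under 0.05, all higher, against 6.15% of all genes. These were Btg2, Klf6 and Zfp36l1, with log2 changes of 1.14, 1.31 and 1.21. Ribosomal protein genes lay above 0 in 34 of 36 tested, against 1205 of all 2390 genes, with a median log2 change of 0.37. In the prefix sums 0 passed and 11 had an unadjusted p under 0.05, all higher, against 6.15% of all genes. Ccr9, a gut-homing receptor gene, stood at 3 transcripts at day 7 and 89 at day 3; its ratio of 0.158 had 95% counting limits of 0.0319 and 0.475. The heparan sulfate enzyme gene Ndst1 had 15.7 and 33.1 CPM at day 7, against 136 and 117 CPM at day 3. Acp5, an acid phosphatase gene, had 54.8 and 66.2 CPM at day 7, against 188 and 197 CPM at day 3. Nrip1, a nuclear corepressor gene, had 54.8 and 49.7 CPM at day 7, against 179 and 176 CPM at day 3. Clic4, an intracellular chloride channel gene, had 204 and 248 CPM at day 7, against 56.4 and 82.6 CPM at day 3. Of the nuclear respiratory chain genes 0 of 37 passed, with 27 below 0 and a median of -0.14. Of the glycolysis genes 0 of 11 passed, with 9 below 0 and a median of -0.27, and of the lysosomal genes 0 of 25, with 16 below 0 and a median of -0.11.

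**Figure D4:**
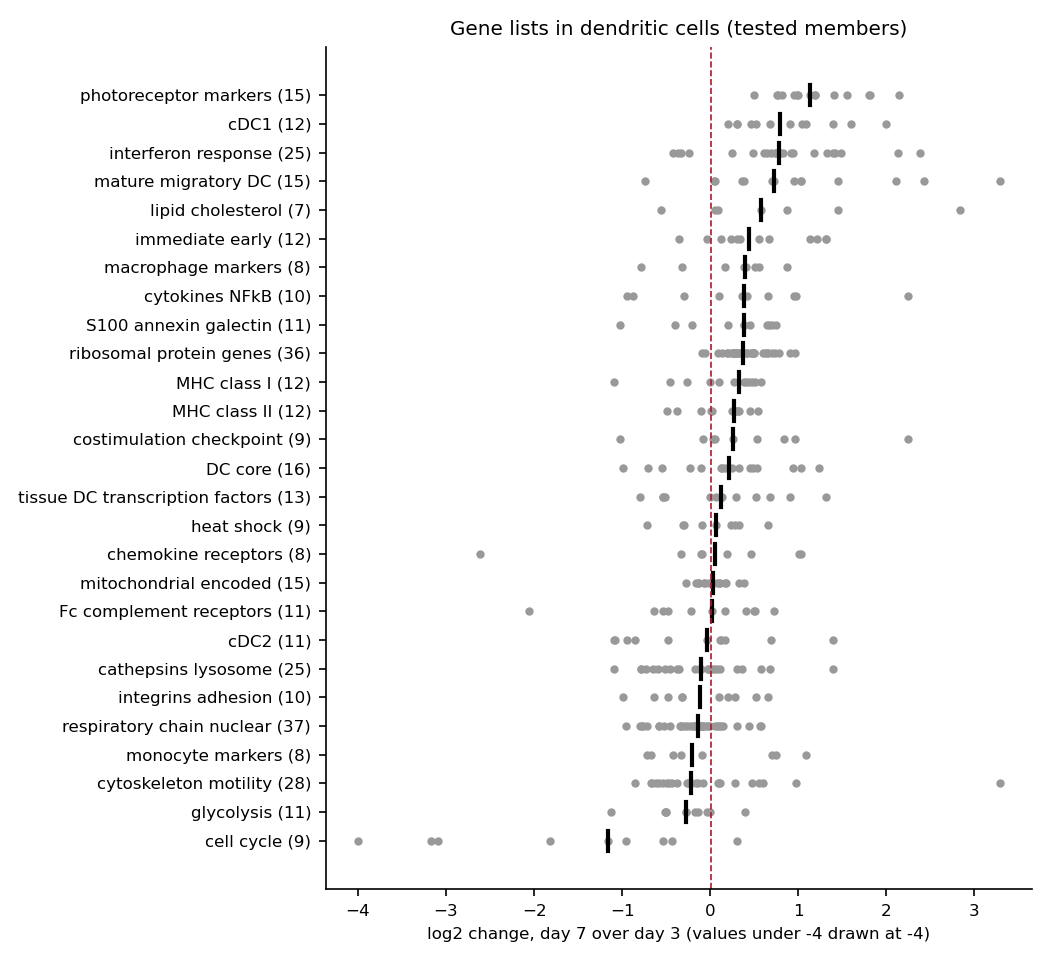
Log2 change, day 7 over day 3, in dendritic cells for the tested members of each gene list with at least 5 of them (grey points), the list's median (black bar) and the median of all genes tested (dashed line); the number tested is in parentheses, and 1 cell cycle value beyond the axis is drawn at its left end. Photoreceptor, cDC1, interferon and mature lists have the highest medians (0.72 to 1.14) and the cell cycle list the lowest (-1.17).

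Photoreceptor transcripts had higher summed levels at day 7 in both prefixes, with the larger gap in P1, and no gene of their list passed. Of 15 tested members of the photoreceptor list 0 passed, and 8 had an unadjusted p under 0.05, all higher, against 6.15% of all genes. All 15 lay above 0, against 1205 of all 2390 genes, with a median log2 change of 1.14. Without the day 3 P1 sum the median was 0.67, without the day 3 P2 sum 2.29, and without the day 7 P2 sum 1.34. The list of 25 genes summed to 6634 and 4438 CPM in P1 and P2 at day 7, against 1181 and 3091 CPM at day 3. The list summed to 6281 and 7000.1 CPM in microglia at day 7, against 2025 and 2905 CPM at day 3, and to 5569 and 5423 CPM in the joint class at day 7, against 1115 and 2666 CPM at day 3. Without the 9 wells in which the list made up 1% or more of transcripts (5 at day 7 and 4 at day 3), Ifitm1, Gm7676 and Fscn1 still passed. The T-cell gene Cd3e had 0 and 0 CPM in P1 and P2 at day 7, against 0 and 1.5 CPM at day 3. The whole T and NK cell list summed to 407 and 563 CPM in dendritic cells at day 7, against 367 and 462 CPM at day 3. Within it Klrd1 had 290 and 248 CPM at day 7, against 296 and 317 CPM at day 3, and Il7r 70.5 and 199 CPM, against 47.0 and 43.5 CPM. The microglial list summed to 1238 and 1242 CPM in dendritic cells at day 7, against 922 and 1587 CPM at day 3.

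The third question was where dendritic cells changed over time differently from the other leukocytes of the same libraries. Against microglia, 14 of 4090 genes (0.342%) had a different change by edgeR's test of the interaction. Ifitm1 fell in dendritic cells while microglia had 58.0 and 46.5 CPM in P1 and P2 at day 7, against 57.5 and 86.7 CPM at day 3. The difference of changes was -2.89 on the log2 scale (SE 0.454, edgeR adjusted p = 0.0129). Fscn1, on its 2 wells, differed by 3.24 (SE 0.561, edgeR adjusted p = 0.0141). Isg15 had 47.1 and 41.9 CPM in microglia at day 7, against 83.0 and 111 CPM at day 3, and differed by 3.13 (SE 0.562, edgeR adjusted p = 0.0141). Irf7 differed by 3.55 (SE 0.737, edgeR adjusted p = 0.0303), with 21.7 and 14.0 CPM in microglia at day 7, against 38.3 and 80.5 CPM at day 3. For the chaperone gene Hsp90ab1 and the tubulin gene Tuba1c the interaction came with large differences in microglia: Hsp90ab1 had 846 and 629 CPM in dendritic cells at day 7, against 724 and 763 CPM at day 3, while microglia had 290 and 186 CPM at day 7, against 1137 and 1034 CPM at day 3. Without the day 7 P1 sums 0 genes passed this test, while 455 had an unadjusted p under 0.05.

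Against the joint class, 4 of 2583 genes (0.155%) differed in their change over time. Stmn1, a tubulin-binding gene of dividing cells, had 7.83 and 16.6 CPM in dendritic cells at day 7, against 127 and 90.1 CPM at day 3, while the joint class had 222 and 374 CPM at day 7, against 57.4 and 59.8 CPM at day 3. The difference of changes was -5.45 on the log2 scale (SE 0.819, edgeR adjusted p = 0.0186). Top2a differed by -6.49 (SE 1.16, edgeR adjusted p = 0.0353), and 2810417H13Rik passed as well, with 0 and 0 CPM in dendritic cells at day 7, against 188 and 70.6 CPM at day 3. The cell cycle list summed to 2952 and 5572 CPM in the joint class at day 7, against 1812 and 1356 CPM at day 3, and to 819 and 1071 CPM in microglia at day 7, against 6905 and 4453 CPM at day 3. The joint class mixes cell types, and its T and NK cell list summed to 5522 and 7068 CPM at day 7, against 812 and 1988 CPM at day 3. Without the day 7 P1 sums 2 genes passed, and without the day 3 P2 sums 19. Cd24a, a glycosylated surface protein gene, differed the other way (5.05, SE 0.914, edgeR adjusted p = 0.0353). The change of Ifitm1 was not called different from that of the joint class (1.33, SE 1.41, edgeR adjusted p = 0.836), where it had 65.9 and 12.5 CPM at day 7, against 1853 and 199 CPM at day 3. The 1853 CPM stood in the P1 sum, which was also the one rich in core dendritic cell markers (14893 CPM, against 3756 CPM in P2). Whether dendritic cell transcripts raised Ifitm1 there was not tested.

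**Figure D5:**
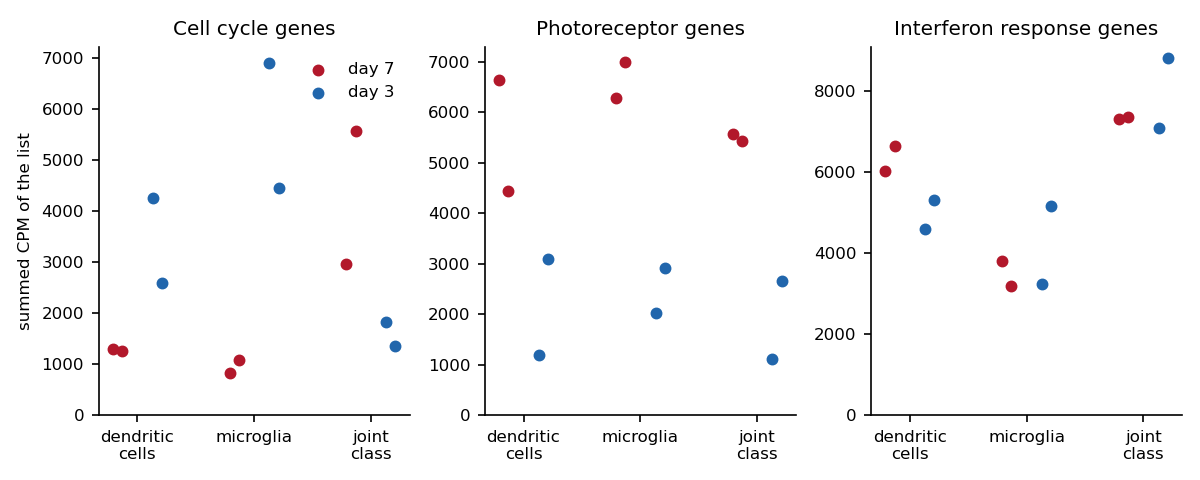
Summed CPM of the cell cycle, photoreceptor and interferon response lists in the P1 and P2 sums of dendritic cells, microglia and the joint class of monocytes, lymphocytes and granulocytes at day 7 (red) and day 3 (blue). Cell cycle genes are lower at day 7 in dendritic cells (1259 to 1285 CPM) and microglia and higher in the joint class, and photoreceptor genes are higher at day 7 in all 3 classes.

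The authors' own clusters split the dendritic cells in 3. Cluster 7 held 20 of 26 wells at day 7 (76.9%) and 49 of 82 at day 3 (59.8%), cluster 1 held 5 (19.2%) at day 7 and 27 (32.9%) at day 3, and cluster 9 held 1 at day 7 and 6 at day 3. By library, cluster 7 held 5 of 5, 8 of 11, 5 of 6 and 2 of 4 wells in day 7 libraries 1 to 4, against 2 of 11, 7 of 12, 11 of 15 and 29 of 44 in day 3 libraries 1 to 4. The clusters were built from these genes, so their sizes were not tested. A second, signature-based column of the annotation also called 18 of the 26 day 7 wells dendritic cells (69.2%) and 40 of the 82 day 3 wells (48.8%), and left 7 and 36 unassigned at day 7 and day 3. It named 1 day 7 well and 5 day 3 wells lymphocytes, and 1 day 3 well a monocyte. In these 18 and 40 wells Ifitm1 and Gm7676 passed again, with log2 changes of -3.19 and -3.18 (edgeR adjusted p = 6.35e-07 and 0.000208), and Fscn1 was not among the 1671 genes tested.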

How the data were processed

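Per the labels' protocols, CD45+ cells were sorted into plates and sequenced by mCEL-Seq2. The deposited values are estimated counts: expected transcripts per gene and well, not normalized, whose near-whole values have the form that correction for molecular identifiers gives. BWA 0.6.2-r126 is named in the submitters' processing notes; the genome build, the annotation and the counting tool stand in none of the sources used here (not given). Cell types, clusters and kept wells are the authors' deposited annotation; no doublet caller was run. Gene names came from the library tables, whose wells matched the authors' table for 389 of 389 laser wells. Another 122 columns of values, of unlesioned retina, were not used.

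Estimated counts of the dendritic cell wells were summed per title prefix, rounded, and tested with edgeR 4.0.16 (filterByExpr, TMM, robust quasi-likelihood, Benjamini-Hochberg, threshold 0.05) in R 4.3.3, checked first on simulated data. Levels are CPM, transcripts of the sum scaled to 1000000. The prefix sums of a time differed beyond sampling noise (chi-square per degree of freedom 2.28 at day 7 and 3.91 at day 3). Shares of wells were compared with exact permutation tests (scipy 1.17.1). Alternatives used DESeq2 1.42.0, limma 3.58.1, single libraries, other wells and filters. Genes at 0 in a group were compared with a floor of 3 transcripts over the group. The genes named were the called ones, then those of smallest unadjusted p up to 10 in each direction, up to 4 per gene list, 26 core genes and the leading interaction genes; others named were chosen after their values were seen. Members and the 35 gene lists were chosen with earlier results of these data known. Replicate libraries have no stated animal of origin.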

Additional observations from a re-analysis of the deposited data

Results flagged for a closer look

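In 5 of 70 groups of 4 libraries that were checked, 1 dendritic cell sum stood far from the other 3; chance flags about 1 in 20. Cd83 was high in day 3 library 3 (204 CPM), and Cfp in day 3 library 2 (636 CPM). Irf7 was high in library 4 of day 7 (535 CPM) and in library 4 of day 3 (76.7 CPM). Ly6c2, a monocyte surface gene, was high in day 3 library 4 (149 CPM).

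The difference between the change over time in dendritic cells and that in microglia passed edgeR's interaction test for 14 genes. On the log2 scale it was -2.89 for Ifitm1, 3.24 for Fscn1, 3.13 for Isg15 and 3.55 for Irf7. It was 2.76 for Emp3, a membrane protein gene that had 164 and 298 CPM in dendritic cells at day 7, against 94.1 and 69.1 CPM at day 3, and 90.6 and 121 CPM in microglia at day 7, against 332 and 338 CPM at day 3. It was 1.82 for Hsp90ab1, 3.21 for Tuba1c and -2.05 for the interferon gamma receptor gene Ifngr1. For Ifngr1 microglia had 268 and 205 CPM at day 7, against 102 and 92.9 CPM at day 3. The remaining 6 were predicted genes with similar values: Gm10715 (-1.85), Gm21750 (-1.83), Gm10719 (-1.70), Gm10717 (-1.60), Gm37954 (-1.54) and Gm21738 (-1.53). Their levels in microglia were higher at day 7 than at day 3 in both prefixes.

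Against the joint class the difference was -5.45 for Stmn1, -6.49 for Top2a and 5.05 for Cd24a. For 2810417H13Rik the fitted value was -10.29, which depends on the prior count because dendritic cells of day 7 held 0 transcripts, and is no bound.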

How the results depend on the processing

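Over 2390 genes, 3 passed; the count was 11 with DESeq2, 36 with no filter on low counts, 8 over single libraries, 13 in the wells that the signature also names, and 1 with limma on mean well CPM. Alternatives chosen after seeing the data gave 13 in cluster 7 and 11 without cluster 9. Leaving out each prefix sum or library gave 1 to 71, the lowest without day 7 library 2 and the highest without the day 7 P2 sum. P1 deviations did not correlate between the times (r = -0.025 over genes). With only 1 sum per prefix and time, this cannot decide whether the prefix pairs samples. With the replicate block 18 genes passed, or 9 over single libraries. Of the 18, 4 were in the cell cycle list, 2 in the interferon list, 1 in the costimulation list and 1 in the photoreceptor list. Against microglia the count of 14 became 25 with no filter, 39 over single libraries and 62 with the replicate block, and 0 to 30 leaving out a sum. Against the joint class the count of 4 became 8 with DESeq2, 22 with no filter and 7 over single libraries, and 2 to 19 leaving out a sum. The cause was not tested. Signature-based shares differed by -17.3 and -18.3 points (adjusted exact permutation p = 0.0286 for both), and leaving out a library gave -24.7 to -20.8 and -27.6 to -18.7.

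Ifitm1 stayed below an adjusted p of 0.05 in the dendritic cell comparison under every alternative run. Gm7676 lost its call without day 7 library 2 (adjusted p = 0.154) and with limma on mean well CPM (0.157), and Fscn1 with thinned sums (0.347), with limma (0.219) and without day 3 library 4 (0.103). Signs reversed only for genes without a call. Cd86 (0.03) was -0.22 with no filter, -0.073 with the block, -0.57 in signature wells, -0.22 without photoreceptor-rich wells, -0.18 on mean well CPM, -0.13 without cluster 9 and -0.0012 without the highest wells. Xcr1 (0.46) was -0.11 in signature wells, -0.66 without photoreceptor-rich wells, -0.26 on mean well CPM and -0.057 in cluster 7. Irf8 (0.52) was -0.053 without photoreceptor-rich wells and -0.082 in cluster 7. Tmem123 was -0.052 in signature wells and -0.052 without the highest wells, Ccl5 was -0.024 in signature wells, Flt3 was -0.052 on mean well CPM, and Ccr2 was 0.079 with the block. Leaving out a sum or library gave -0.47 to 0.31 for Cd86, -1.10 to 1.18 for Xcr1, -1.34 to 1.27 for Irf8, -0.33 to 0.24 for Ciita, -1.08 to 0.83 for Ccr2, -0.23 to 3.50 for Ccr7, -0.30 to 3.42 for Ccl5 and -0.072 to 2.54 for Rab7b. Depth limits the day 7 sums most: the smaller held 60410 transcripts.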
